A study of Boehmeria nivea with 2 samples.

Results

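RING and U-box ubiquitin ligases are the enzymes that pick out proteins for ubiquitin tagging. In the ramie leaf transcriptome they were taken to be all unigenes whose best Swiss-Prot name contains the words E3 ubiquitin-protein ligase, U-box domain-containing or RING-H2, with COP1 left out. A unigene is a gene-level sequence from the assembled reads. The words found 263 of 46533 unigenes under 140 different Swiss-Prot names, after 5 COP1 unigenes were dropped. By name, 190 were of the RING type, 64 of the U-box type and 9 of the HECT type. The HECT type (the UPL proteins) has neither domain and was found only because its names carry the same words, so it was kept apart.

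Ubiquitin is passed from an activating enzyme (E1) to a conjugating enzyme (E2) and, with the help of a ligase (E3), to a target protein, which is then often broken down by the proteasome. RING and U-box domains have a similar fold and hold the loaded E2 next to the target; the RING fold is held together by zinc ions, whereas the U-box is not. HECT ligases take the ubiquitin onto themselves first. In Arabidopsis and rice, members of these families act in hormone signaling and in immunity, where some limit and others promote the defense response.

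Both libraries were made from the leaves of 30-day-old ramie plants of the cultivar Chuanzhu 8. CH plants each carried 2 larvae of the ramie moth (RM, Cocytodes coerulea) on the 4th leaf from the apex, and CK plants were controls, which the labels call both mock-challenged and unchallenged. In both, the topmost 2 undamaged leaves were taken at 12, 24, 48 and 72 h from 5 plants per time point, and the RNA of the 4 times was mixed into 1 library per group. CH is therefore a readout of leaves on which the larvae did not feed, with the times and plants averaged, and no value below has a replicate. A difference compares these 2 libraries, not the conditions, and its interval covers counting error only. In whole leaves, fewer cells of a type and less RNA per cell cannot be told apart.

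The libraries held 17800062 (CK) and 26938918 (CH) counted fragments, here called reads. Leaf markers were present in both, but at different levels. The RPKM (reads scaled to the length of the unigene and the size of the library) of 50 chlorophyll a-b binding unigenes summed to 35612 in CK and 16288 in CH, and those of 11 rubisco small chain and 14 rubisco activase unigenes were lower in CH as well. The part of this shift in the results on the ligases was not tested. The sequences of the unigenes were not used here, so the names below rest on the deposited annotation alone.

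Reads were found for 262 members, and 235 had at least 10 reads over both libraries. The Swiss-Prot hit was an Arabidopsis protein for 229 members, and the Nr hit, the best match in the wider protein database, was a eudicot plant for 261 members. The exceptions were an ATL53-named unigene with a fungal hit and 2 reads in all, and a UPL2-named unigene with an algal hit and 30 and 48 reads. For 224 members the Nr name or a GO term also gave a ligase, RING or zinc protein, and 39 rested on the Swiss-Prot name alone. Members came from 257 assembly components, and only 12 of them shared a component with another member. Unigenes of a family may still share reads, so single unigenes with close relatives are uncertain to that extent.

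As levels per length, the members were moderately expressed. The median RPKM of the members with at least 10 reads was 15.5 in CK and 14.9 in CH, against 5.64 and 5.13 over all such unigenes. Their median length was 1450 bases, against 423 over all unigenes. Of all reads, the members took 1.00% in CK and 1.11% in CH. The RING type took 0.686% and 0.821%, and the U-box type 0.252% and 0.229%.

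Calls required 2 things, an RPKM that differed at least 2-fold and a Benjamini-Hochberg adjusted p under 0.01, over 43302 unigenes, in the 2-sided Audic-Claverie test of the reads. On this rule 13 members (4.96%) were higher and 12 (4.58%) lower in CH, where 2.48% of all unigenes with a read were higher and 4.28% lower. Because members were more often well covered, the share among unigenes with at least 10 reads is the closer background, at 4.54% higher and 7.71% lower, beside 5.53% and 5.11% of the members. The members' total was therefore near the background in the higher direction and below it in the lower direction. All 25 called members had a eudicot hit.

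Counted by type, most RING-type calls were upward and most U-box calls downward. Of 189 RING-type unigenes with reads, 12 (6.35%) were higher and 5 (2.65%) lower, whereas of 64 U-box unigenes 1 (1.56%) was higher and 7 (10.9%) were lower, beside 2.48% and 4.28% of all unigenes with reads. Among unigenes with at least 10 reads, these calls made up 7.1% higher and 2.96% lower for the RING type and 1.72% higher and 12.1% lower for the U-box type, beside 4.54% and 7.71% of all. No HECT-type unigene was called. The median log2 RPKM ratio of CH to CK was 0.06 over 169 RING-type unigenes with at least 10 reads and -0.13 over 58 U-box unigenes, against -0.02 over all unigenes. Differences of at least 1.5-fold were counted for 25 RING-type unigenes upward and 23 downward, and for 3 U-box unigenes upward and 15 downward. The difference between the types was not tested.

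**Figure D1:**
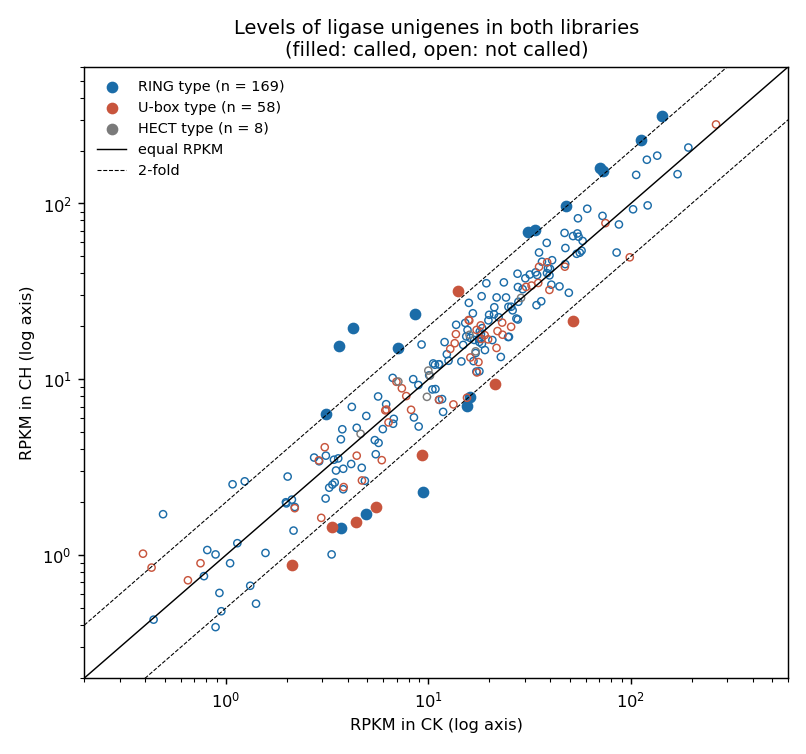
RPKM of each ligase unigene with at least 10 reads in CK (x axis, log) and CH (y axis, log), 1 library each, colored by type, with the lines of equal and 2-fold RPKM. Most points lie between the 2-fold lines (169 of 235 differ less than 1.5-fold), the filled RING-type points above the upper line reach 314 RPKM in CH, and the filled points below the lower line are at most 21.6 RPKM in CH.

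The largest ratio of the members called higher belonged to a unigene named XB3, after the rice RING protein with ankyrin repeats that binds the immune receptor XA21 (comp37485_c0). It had 195 reads in CK and 1346 in CH, or an RPKM of 4.27 and 19.5, which is 4.56-fold higher (95% interval 3.92 to 5.33). Its Nr hit is an unnamed protein of Prunus, so the name rests on Swiss-Prot alone. The other 11 members of this ankyrin-RING family with at least 10 reads were not called, and their log2 ratios ran from -0.73 (XBOS32) to 0.53 (XBAT31).

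Next came RHA2B, which in Arabidopsis promotes responses to abscisic acid together with its relative RHA2A. One RHA2B unigene (comp27318_c0) had 42 and 286 reads, RPKM 3.64 and 15.5, and was 4.50-fold higher in CH (3.25 to 6.38). A unigene of RHA2A (comp29120_c0) had 74 and 239 reads, RPKM 7.07 and 15.0, and was 2.13-fold higher (1.64 to 2.81). A unigene of RHA1B, a RING-H2 protein of the same group, had 368 and 1252 reads, RPKM 30.9 and 69.1, and was 2.25-fold higher (2.00 to 2.53). The RHA2 unigenes called higher were not the abundant ones of their names. The most abundant RHA2A unigene stood at RPKM 72.4 and 85.0 (log2 0.23), and that of RHA2B at 57.8 and 61.2 (0.08). Over all 13 RHA and RHF unigenes with at least 10 reads, 3 (23.1%) were called higher and none lower, and the median log2 ratio was -0.07. Of all unigenes with at least 10 reads, 4.54% were higher and 7.71% lower.

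The unigenes called higher with the most reads were those named ORTHRUS 2, CIP8 and LOG2. CIP8, a RING-H2 protein found in Arabidopsis as a partner of COP1 and able to ubiquitinate the light factor HY5, had the highest level of all members in CH. It had 3625 reads in CK and 12069 in CH, RPKM 143 and 314, and was 2.20-fold higher (2.12 to 2.28). LOG2, a plasma membrane ligase that works with the amino acid export regulator GDU1 in Arabidopsis, had 3257 and 10029 reads, RPKM 112 and 228, and was 2.03-fold higher (1.96 to 2.12). ORTHRUS 2, which binds methylated cytosines and helps to maintain DNA methylation in Arabidopsis, had 4718 and 15009 reads, RPKM 72.9 and 153, and was 2.10-fold higher (2.03 to 2.17). These are the narrowest intervals in the group, since these are the called members with the most reads, and for LOG2 the interval includes ratios under 2.

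RMA3 belongs to a small family of ligases anchored in the membrane of the endoplasmic reticulum. Its unigene comp16204_c0 had 1671 and 5753 reads, RPKM 70.2 and 159, and was 2.27-fold higher in CH (2.15 to 2.40). Makorin, a RING protein with further zinc fingers, had 729 and 2314 reads, RPKM 33.5 and 70.3, and was 2.10-fold higher (1.93 to 2.28). SINA-like 2 is named after a fruit fly ligase of eye development. Its unigene had 1016 and 3144 reads, RPKM 47.6 and 96.9, and was 2.04-fold higher (1.90 to 2.20), but the Nr hit was a protein SET and not a ligase. Together with CIP8, LOG2, ORTHRUS 2 and RHA1B, these made 7 unigenes called higher with over 50 RPKM in CH, all of the RING type.

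The last members called higher were less abundant. ATL70 (comp32505_c0), of the ATL family of RING-H2 proteins with a membrane-spanning region, had 82 and 340 reads, RPKM 8.63 and 23.5, and was 2.74-fold higher (2.15 to 3.53). RING1 (comp29082_c0) had 28 and 86 reads, RPKM 3.14 and 6.31, and was 2.03-fold higher (1.31 to 3.23). U-box protein 16 was the 1 U-box unigene called higher, at 790 and 2697 reads, RPKM 14.0 and 31.6, or 2.26-fold (2.08 to 2.45). The RING1 ratio has the widest interval of these. With a pseudocount of 1 added to RPKM, the calls of RING1 and of RHA2A were lost.

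**Figure D2:**
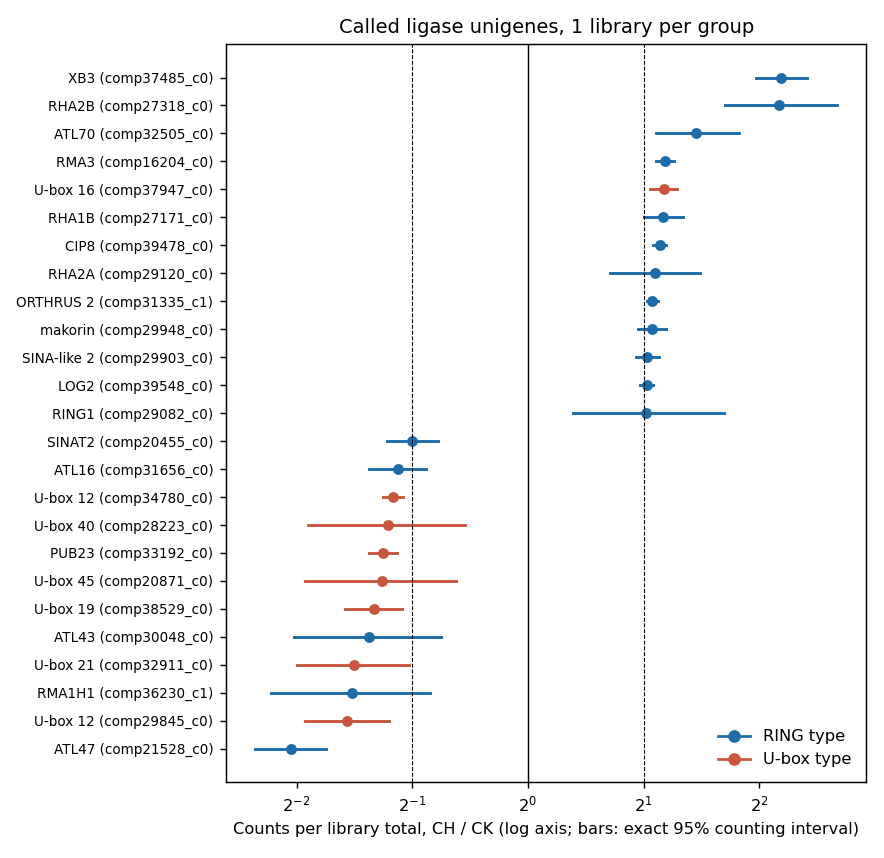
Ratio of reads per library total, CH to CK (log axis), of the 25 called ligase unigenes with exact 95% counting intervals, with lines at equal and 2-fold levels. RING-type unigenes make up 12 of the 13 on the right and U-box unigenes 7 of the 12 on the left, with XB3 and RHA2B at 4.56 and 4.50-fold and ATL47 lowest at 0.242 of CK.

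Of the U-box unigenes called lower, the most abundant was named PUB23. This ligase acts in Arabidopsis with PUB22 and PUB24 to damp immunity triggered by microbial patterns. Its unigene comp33192_c0 had 1389 reads in CK and 882 in CH, RPKM 51.6 and 21.6, and was 2.38-fold lower in CH (2.19 to 2.60). The other PUB23 unigene was not called (log2 0.42). PUB12, which with PUB13 promotes the turnover of the flagellin receptor FLS2 in Arabidopsis, is the name of comp29845_c0. That unigene had 187 and 96 reads, RPKM 5.52 and 1.87, and was 2.95-fold lower (2.29 to 3.81).

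A unigene named after the rice protein numbered U-box 12 (comp34780_c0), which is not the same name as PUB12 of Arabidopsis, had 2605 and 1756 reads, RPKM 21.3 and 9.46, and was 2.25-fold lower (2.11 to 2.39). The unigenes named PUB13 stood apart from each other. The first, comp39252_c0, had 870 and 621 reads, RPKM 15.5 and 7.86, and missed the 2-fold line at a log2 RPKM ratio of -0.98. By reads per library total its log2 ratio was -1.08, past that line. The other, comp36062_c1, stood at RPKM 32.3 and 34.1 (0.08). Neither was called.

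U-box protein 19 limits abscisic acid and drought responses in Arabidopsis. Its unigene comp38529_c0 had 364 and 219 reads, RPKM 9.35 and 3.71, and was 2.52-fold lower (2.12 to 2.99). U-box protein 21 (comp32911_c0), a name from Swiss-Prot alone, had 107 and 57 reads, RPKM 4.39 and 1.54, and was 2.84-fold lower (2.04 to 3.99). U-box protein 40, which promotes the turnover of the brassinosteroid factor BZR1 in Arabidopsis, had 49 and 32 reads, RPKM 3.36 and 1.44, and was 2.32-fold lower (1.45 to 3.74). U-box protein 45 had 54 and 34 reads, RPKM 2.12 and 0.88, and was 2.40-fold lower (1.54 to 3.81). The last 3 of these are weakly expressed in both libraries, with wide intervals. The calls of U-box proteins 40 and 45 were lost with a pseudocount of 1 added to RPKM.

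Other U-box unigenes named after immune or hormone regulators were not called. U-box protein 17, a positive regulator of defense in Arabidopsis, stood at RPKM 23.3 in CK and 17.9 in CH (log2 -0.37). U-box protein 14 stood at 38.6 and 46.3 (0.26). CHIP, which binds chaperones and tags misfolded proteins, stood at 74.9 and 77.3 (0.05). U-box protein 44, in Arabidopsis a suppressor of early senescence, stood at 11.3 and 7.65 (-0.56). SPL11, which restrains cell death in rice, had 2 and 8 reads, too few to read a direction.

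The most abundant U-box member, U-box protein 9 (comp32452_c1), binds receptor kinases of the S-domain class in Arabidopsis. It had RPKM 263 in CK and 281 in CH (log2 0.10), was not called, and was the most abundant member of any type by its mean.

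**Figure D3:**
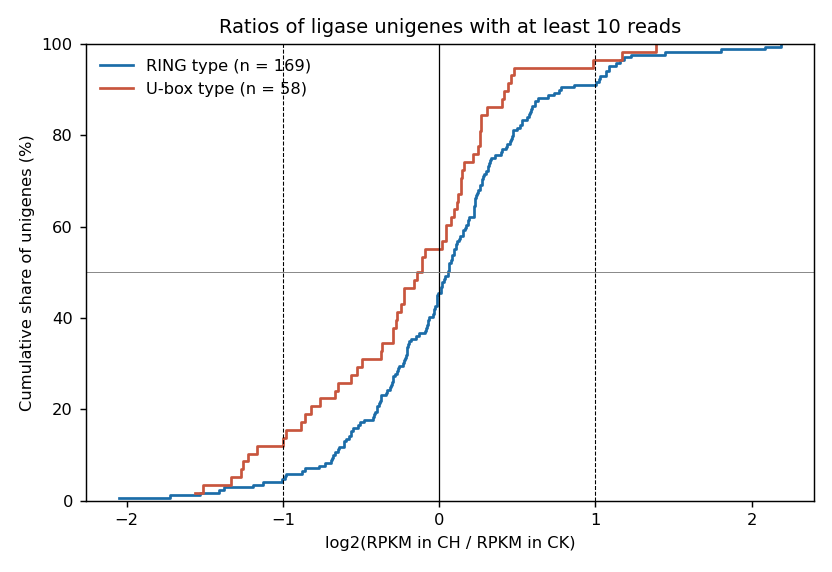
Cumulative share of RING-type (n = 169) and U-box (n = 58) unigenes with at least 10 reads over their log2 RPKM ratio of CH to CK, with lines at equal level and 2-fold. The curves cross 50% at 0.06 and -0.13, and the U-box curve is further left at its lower end, with a lower quartile of -0.63 against -0.31 for the RING type.

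RING-type unigenes called lower were few, 5 in all. Their RPKM in CK was at most 15.97, near the median of 15.85 of RING-type unigenes with at least 10 reads. ATL47 (comp21528_c0) had the lowest ratio of all called members, with 333 reads in CK and 122 in CH, RPKM 9.45 and 2.28, or 4.13-fold lower (3.35 to 5.13). ATL43, whose loss makes Arabidopsis seeds less sensitive to abscisic acid, had 60 and 35 reads (comp30048_c0), RPKM 3.72 and 1.43, and was 2.59-fold lower (1.68 to 4.06), a call lost with the same pseudocount. ATL16 (comp31656_c0), a name from Swiss-Prot alone, had 337 and 234 reads, RPKM 15.5 and 7.09, and was 2.18-fold lower (1.84 to 2.59). With these 3 lower (4.84%) and ATL70 higher (1.61%), the ATL and RING-H2 family had 4 calls among 62 unigenes. Of all unigenes with reads, 4.28% were lower and 2.48% higher. Among unigenes with at least 10 reads, the family's shares were 5.36% lower and 1.79% higher, below the 7.71% and 4.54% of all.

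RMA1H1 is named after a pepper ligase that lowers the level of an aquaporin at the plasma membrane. The unigene comp36230_c1, which has this name from Swiss-Prot alone, had 55 and 29 reads, RPKM 4.95 and 1.71, and was 2.87-fold lower (1.80 to 4.67). SINAT2 (comp20455_c0), of the same family as SINA-like 2, had 388 and 294 reads, RPKM 15.97 and 7.97, and was 2.00-fold lower (1.71 to 2.33). SINAT2 lay at the 2-fold line, at a log2 RPKM ratio of -1.003, and its call was lost when the fold was taken from reads per library total or after either rescaling of the libraries. On the other side of the line, U-box protein 4 (comp33052_c0) had 3136 and 2379 reads, RPKM 98.8 and 49.4, and missed the call at a log2 ratio of -0.9994.

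The 2-fold line set the number of calls more than the reads did. At an adjusted p below 0.01 stood 111 members, and 86 of them differed less than 2-fold, 44 upward and 42 downward. A further 9 members passed 2-fold with too few reads for a call. One of these was the RGLG2 unigene comp37223_c0, with 3 and 16 reads.

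The ATL family, the largest with 62 unigenes, was spread evenly about no change. Over the 56 with at least 10 reads the median log2 ratio was -0.04, with 26 positive and 30 negative. ATL2 and ATL6, known in Arabidopsis as genes that respond early to chitin elicitors, stood at RPKM 57.1 and 53.9 (log2 -0.08) and at 44.4 and 33.8 (-0.40). ATL4 (comp28404_c0) stood at 15.9 and 27.2 (0.78) and ATL52 at 19.3 and 35.2 (0.86). The abundant ATL members were ATL74 (comp34809_c3), at 135 and 187 (0.47), and ATL48 (comp25209_c0), at 106 and 145 (0.45). None of these 6 was called.

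Further RING-type names from abscisic acid and cold signaling were not called. KEG, which keeps the factor ABI5 low in Arabidopsis, was the name of 6 unigenes with a median log2 ratio of 0.29. Of these, 5 were positive, and the largest value, 0.70, was that of comp25120_c0 at RPKM 18.3 and 29.7. The name KEG rests on Swiss-Prot alone for comp25120_c0, comp29849_c0 and comp417339_c0. AIP2, which acts on the factor ABI3, stood at RPKM 22.2 and 22.5 (0.02). SDIR1, a positive regulator, had 67 and 83 reads, RPKM 3.80 and 3.10 (-0.29). HOS1, known from cold signaling, stood at 11.3 and 12.2 (0.11).

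The remaining families held a single call, in RING1. The ARI family, RING-between-RING ligases, had 9 unigenes, a median log2 ratio of 0.23 and no call. Of 19 RING1-like unigenes with at least 10 reads, 12 were negative, and the median was -0.20. Of these 19, 1 (5.26%) was called, upward, beside 4.54% of all unigenes with at least 10 reads. The 3 BRE1-like unigenes, ligases that tag histone H2B, ran from -0.26 to 0.17. PRT1, a ligase of the N-degron pathway, stood at RPKM 15.4 and 17.5 (0.19), and listerin, which tags stalled nascent chains on ribosomes, at 6.19 and 7.22 (0.22). BAH1-like 1, of a family that controls phosphate transporters and salicylic acid responses in plants, stood at 23.6 and 35.6 (0.59). The 8 HECT-type unigenes with at least 10 reads ran from -0.31 (UPL1) to 0.45 (UPL4), and UPL3, which limits trichome branching in Arabidopsis, stood at 28.7 and 29.0 (0.02).

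**Figure D4:**
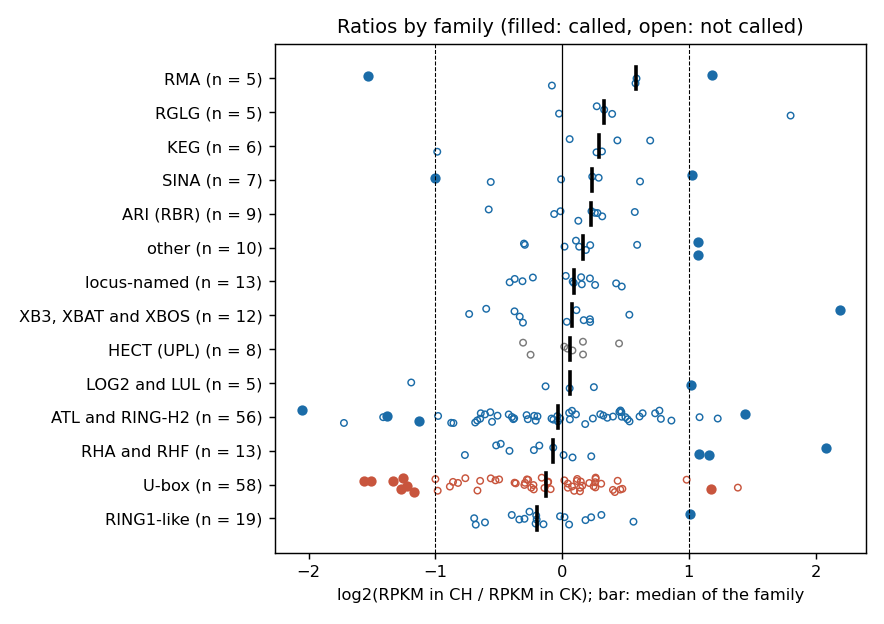
Log2 RPKM ratio of CH to CK of each ligase unigene with at least 10 reads, by family for families of at least 5 such unigenes, with the median as a bar and called unigenes filled. Medians run from -0.20 (RING1-like) to 0.58 (RMA), and most families hold values on both sides of 0.

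The 8 most abundant members took 21.8% of the summed RPKM of all members in CK and 26.0% in CH. Besides CIP8, LOG2, U-box protein 9, ATL74 and ATL48 they were XBAT35, LIN and RING1a. XBAT35 (comp33704_c0), an ankyrin-RING protein tied to ethylene responses in Arabidopsis, stood at RPKM 192 in CK and 208 in CH (log2 0.11). LIN (comp39181_c3), named after a legume protein needed for rhizobial infection that carries a U-box, stood at 170 and 147 (-0.21). RING1a (comp32976_c1), in Arabidopsis a component of the Polycomb repressive machinery, stood at 120 and 177 (0.56). Only CIP8 and LOG2 of the 8 were called. All 4 LIN unigenes are counted with the RING type here, since the rule sorts by name.

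Unigenes under the same name often differed in direction. At least 2 unigenes with 10 reads or more shared a name and its species for 56 names, and for 38 of these names the log2 ratios had both signs. Signs were counted at any size, as for RHF2A at -0.07 and 0.01. Of all members with at least 10 reads, 124 were positive and 111 negative. Whether both signs were more frequent under a name than in groups of unrelated members was not tested. A call was made under 17 of the names. Each of these had a single called unigene, so the calls under a name could not differ in direction. The median span between the highest and the lowest log2 ratio of a name was 0.77, and the widest, 2.31, was that of RHA2B. The PUB23 unigene that was not called (comp30179_c1) had 76 and 154 reads, RPKM 3.08 and 4.11, and a log2 ratio of 0.42 against -1.26 for the called one. For RMA1H1 the log2 ratios were 0.58 and 0.59 in the 2 abundant unigenes and -1.53 in the scarce one. RHA1B showed 1.16 and -0.77, ATL16 showed -1.13 and 0.73, and U-box protein 21 showed -1.51 and 0.48. Both unigenes of ATL70 (1.44 and 1.23), ATL43 (-1.38 and -1.72) and U-box protein 40 (-1.22 and -0.82) pointed 1 way.

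GO terms give the functions that the annotation attaches to the members. Ligase activity was attached to 172 members, and zinc ion binding to 104 RING-type and 3 U-box unigenes. Response to chitin was attached to 68 members, of which 6 (8.82%) were higher and 1 (1.47%) lower, against 4.78% and 7.68% of all unigenes with the term. Of the 54 RING-type unigenes with this term, 5 (9.26%) were higher and none lower. Of the 14 U-box unigenes with it, 1 was higher and 1 lower (7.14% each). The abscisic acid term was attached to 54 members, 3 of them (5.56%) higher and none lower, against 4.6% and 6.76% of all unigenes with it. The jasmonic acid term was attached to 30 members, 1 of them (3.33%) higher and none lower, against 5.58% and 8.02%. The wounding term was attached to 11 members, 1 of them (9.09%) higher and none lower, against 6.99% and 8.84%. Among unigenes with reads, the members' share in the higher direction was above that of all unigenes with the term for chitin, abscisic acid and wounding. For jasmonic acid it was below. Among unigenes with at least 10 reads, the chitin shares were 9.09% of the members and 6% of all, and the wounding shares 11.1% and 9.52%. The abscisic acid shares were then 5.88% of the members and 5.98% of all, so the members were not above all unigenes with that term. These shares rest on 1 to 6 called members each, and the differences were not tested. No member with the term for response to bacterium, 27 in all, was called, against 3.16% higher and 7.5% lower of all unigenes with it. The terms overlap in their members and rest on the same sequence hits as the names.

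The other steps of the ubiquitin pathway were read from lists drawn from the same annotation. No unigene was called for E1 enzymes (3 unigenes), ubiquitin itself (13 with reads), cullins (6), SKP1-like proteins (6), RING-box protein (1), the COP9 signalosome (9) or the SUMO and NEDD8 enzymes (21). Beside 2.48% higher and 4.28% lower of all unigenes with reads, 1 (2.86%) of 35 E2 unigenes with reads was higher and none lower. It was E2 36 (comp34953_c0), in Arabidopsis an enzyme of ubiquitin chains that do not mark proteins for the proteasome. It had 1544 reads in CK and 5383 in CH, or 2.30-fold (2.18 to 2.44). Its RPKM was 77.3 in CK and 246 in CH (log2 1.67), a larger ratio that lies outside this interval. Of 40 deubiquitinases with reads, 1 (2.5%) was higher and none lower. The higher one was an OTU-domain unigene (comp36868_c0) with 154 and 737 reads, or 3.16-fold (2.65 to 3.79). Both higher shares were near that of all unigenes with reads. Among unigenes with at least 10 reads they were 3.33% for E2 and 2.78% for deubiquitinases, beside 4.54% of all. With none lower, both lists were below the 7.71% of all in that direction.

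F-box proteins, the target-binding subunits of cullin ligases, had calls in both directions, 13 (6.07%) higher and 6 (2.80%) lower of 214. Of all unigenes with reads, 2.48% were higher and 4.28% lower. Among unigenes with at least 10 reads, the F-box shares were 6.67% and 3.08%, beside 4.54% and 7.71% of all. EIN3-binding F-box protein 1, which limits ethylene signaling in Arabidopsis, stood at RPKM 665 in CK and 1546 in CH and was 2.04-fold higher by its reads (1.99 to 2.09). The MAX2 homolog, of strigolactone and karrikin signaling, had RPKM 85.3 and 187 and was 2.20-fold higher (2.12 to 2.28). The lowest ratio with over 100 reads in each library was that of the F-box unigene At2g26850 (comp35917_c0), at 1075 and 312 reads, or 5.21-fold lower (4.59 to 5.93). BTB/POZ proteins, which include adaptors of another cullin ligase, had 2 (3.92%) higher and 6 (11.8%) lower of 51. Among unigenes with at least 10 reads, their shares were 4.26% and 12.8%, beside 4.54% and 7.71% of all.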

How the data were processed

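Leaf RNA of 1 CK and 1 CH library was compared. The authors merged all reads into 1 Trinity assembly and deposited an expected count of fragments for each, not normalized. The deposited RPKM divides that count by effective length and library total. The deposited TPM was not used. Which mapper and counter were run is not stated in the sources used here. The submitters' processing notes name DESeq without a version. Names come from the deposited annotation.

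Expected counts were rounded to whole reads and tested with the Audic-Claverie test on all 43302 unigenes with at least 1 read. Folds are ratios of reads per library total with exact 95% Clopper-Pearson intervals. Log2 values and the 2-fold threshold use RPKM, and medians use unigenes with at least 10 reads, with 0 reads set at a floor of 3. The named members are up to 12 called in each direction, by the interval bound nearest 1, the 8 with the highest mean RPKM, and those of described families with at least 10 reads. RING1 comp29082_c0 was named as the only called member outside this rule. F-box, BTB/POZ, E2 and deubiquitinase unigenes were named after their values were seen. Members and lists were chosen with earlier results of these data known. Alternatives were an exact binomial test, edgeR 4.0.16 with dispersions estimated or assumed, 2 rescalings, filters, pseudocounts, stricter thresholds and other member sets. Python 3.11.15, numpy 2.4.6, pandas 2.3.3, scipy 1.17.1 and R 4.3.3 were used.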

Additional observations from a re-analysis of the deposited data

How the results depend on the processing

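With 1 library per group, the variation between plants is unknown, and edgeR's exact test needs a value for it. With variation estimated blind to the groups, as a trend over expression level, 0 members were called higher and 0 lower, of either type. The common coefficient of variation of that estimate was 0.407. It takes the 2 libraries as replicates, so the difference between the groups is part of it. An assumed coefficient of variation of 0.4 also gave 0 and 0. At an unadjusted p under 0.05, the estimated trend left 3 members and the assumed 0.4 left 3. With an assumed 0.2, 2 members were called higher and 1 lower, all of the RING type (2 and 1), and 0 and 0 of the U-box type. A 4-fold threshold gave the same counts, 2 and 1 for the members, 2 and 1 for the RING type and 0 and 0 for the U-box type. Both settings left the unigenes XB3 comp37485_c0, RHA2B comp27318_c0 and ATL47 comp21528_c0. A pseudocount of 1 on RPKM left 11 members called higher and 8 lower, and ended the calls of RHA2A comp29120_c0, RING1 comp29082_c0, ATL43 comp30048_c0, SINAT2 and U-box proteins 40 and 45. It left 3 RING-type and 5 U-box unigenes called lower. A pseudocount of 0.1 ended those of RING1 and SINAT2, and an adjusted p threshold of 0.001 those of RING1 and U-box protein 40. The RING-type number was also 3 when only members supported by their Nr name or a GO term were kept, an alternative chosen after seeing the data.

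Under the exact binomial test, both filters at 10 reads, eudicot hits only and 1 unigene per component, all 25 calls were kept. All 25 had a eudicot hit and more than 10 reads in each library, so the read and eudicot filters could not take one out. TMM and median of ratios shifted log2 ratios by 0.05 and 0.08 and lost the call of SINAT2 alone. Taking the fold from reads per library total, an alternative chosen after seeing the data, lost SINAT2 and called PUB13 comp39252_c0 lower. It left 4 RING-type and 8 U-box unigenes called lower. No called member changed its direction in a setting that kept it among the members, but this could hardly have come out otherwise. Every call needs a 2-fold ratio, the rescalings shifted log2 ratios by only 0.05 and 0.08, and a pseudocount cannot reverse a ratio. Apart from the fold by reads per library total, the other settings reused the same RPKM ratio. No paired analysis was possible because each group has 1 library.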
